A study of Mus musculus with 9 samples.

Results

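Circular RNAs (circRNAs) of the Got1 locus were followed in mouse liver on 9 arrays. They were chosen by position: of 14043 circRNA probes that carry a position in their name, 3 lay wholly within chromosome 19, 43570000 to 43600000 (build mm9), a window taken as Got1. A further 16491 circRNA probes, of 30534 in all, are named by a number or code and could not be placed, so that other circles of Got1 may be among them. Probes carry no gene name in these files, and the RefSeq gene table at hand is of build GRCm38. The name Got1 therefore rests on the choice of the window, and exons and introns were not assigned.

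The window was singled out because its circles were lower on a high fat diet than on chow in these same arrays. That contrast is therefore described here without a test. Both metformin contrasts share arrays with it.

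The livers came from male C57BL/6J mice, an inbred strain, at 20 weeks of age. Controls ate chow for 17 weeks. The high fat diet group was fed chow with 45% of energy as fat over the same 17 weeks and was given saline by gavage in the last 5. The metformin group had the same diet and was given metformin, a biguanide that lowers blood glucose, at 3 mg per kg per day by gavage over those 5 weeks. No gavage is listed for the controls, so that diet and gavage cannot be told apart in comparisons with them. Every group comprised 3 arrays, each with RNA pooled from 4 mice. Spread between arrays is thus spread between pools, and p-values measure no more than that. RNA was digested with RNase R, an exonuclease that degrades linear RNA, before labelling.

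Got1 encodes the cytosolic aspartate aminotransferase, which moves an amino group between aspartate and 2-oxoglutarate, giving oxaloacetate and glutamate. Together with its mitochondrial counterpart and the malate dehydrogenases it forms the malate-aspartate shuttle, which carries reducing equivalents from NADH into mitochondria, and in liver it links amino acid breakdown to glucose synthesis and to the aspartate used by the urea cycle. Aspartate aminotransferase activity in blood is a common marker of liver damage. A circRNA forms when a splice donor is joined to an upstream acceptor (back-splicing), and the closed RNA is more stable than its linear counterpart. The genes of the shuttle, of other transaminases, of gluconeogenesis and of the urea cycle, and markers of liver cell types, were not analysed here, because no probe could be given a gene through the files.

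The members were a short circle (43579012 to 43579416, a span of 404 bases in the probe name), a middle circle (43579012 to 43582483, 3471 bases) and a long circle (43581812 to 43590352, 8540 bases). The short and the middle circle have the same lower end, and the short span lies inside the middle one. The middle and the long span overlap by 671 bases, and the short and the long circle are 2396 bases apart. Signal in these spans can thus come from shared parts of one transcript, and the 3 circles are not independent readings. Each circle had 1 probe and 1 partner probe of the same name with the ending _neg. The target of these partners is not stated in the sources at hand, and they serve as a paired reading.

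**Figure D1:**
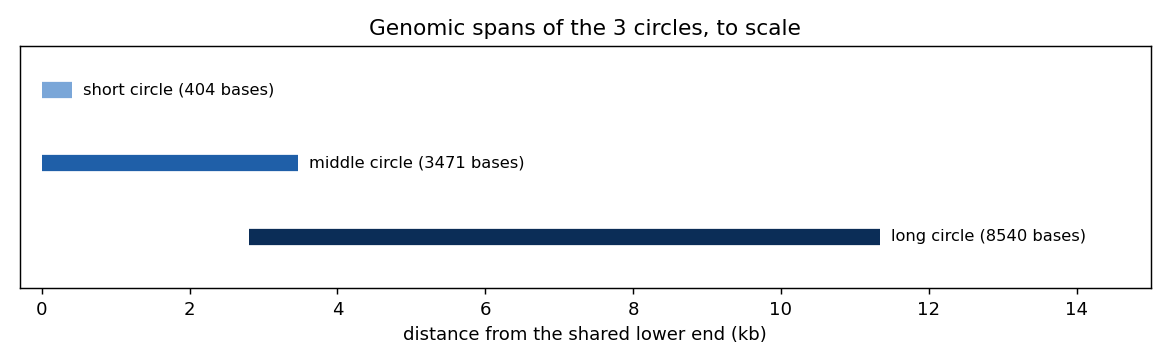
Genomic spans of the 3 circles, to scale, on an axis of distance in kb from the lower end that the short and the middle circle share. The middle span covers all of the short one and overlaps the start of the long one.

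Since all 3 circles would come from a single gene, the 250 bases before its start are shown for orientation, from the RefSeq promoter table. They lie at chr19:43524606-43524855 of GRCm38.p6 on the minus strand, a build whose positions cannot be set beside the mm9 spans. Capitals mark CCAAT, or ATTGG where it reads on the other strand.
Got1: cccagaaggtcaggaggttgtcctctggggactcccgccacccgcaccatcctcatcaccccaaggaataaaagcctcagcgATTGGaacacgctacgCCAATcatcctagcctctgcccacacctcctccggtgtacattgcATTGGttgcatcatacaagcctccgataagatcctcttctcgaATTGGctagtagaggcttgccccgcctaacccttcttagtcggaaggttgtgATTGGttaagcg
This stretch held 5 matches to CCAAT over both strands, 1 as CCAAT and 4 as ATTGG, none of which overlap. At least 1 match was found in 33.8% of 32851 promoters of the same length, and 5 or more in 0.213%. Searched likewise on both strands, the TATA box as TATAAA had 0 matches here, while 12.4% of promoters held at least 1. The GC box as GGGCGG also had 0 matches, and the share of promoters holding it was 32.7%. Nor was the E-box found, which was searched as CACGTG and is present in 6.02% of promoters. The cAMP response element, searched as TGACGTCA and held by 1.55% of promoters, was not found either. The motifs were searched after the expression values were seen, and a match is a description of the letters, not a site. The GC content was 54.4%, against a median of 52.4%.

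All 6 probes were measured well. Their 54 spots were well above background on every array, none was saturated or marked as an outlier, and raw brightness was 5.07 to 327 times the local background. The 6 spots lay at least 6 spot rows apart and in the same place on each array. Over the arrays, 69.4% to 84.3% of all probes were well above background, with the lowest shares on metformin replicate 3 (69.4%) and high fat diet replicate 2 (71.8%). All 3 control arrays and high fat diet replicate 1 lay in column 1 of the first slide, high fat diet replicates 2 and 3 and metformin replicates 1 and 2 in its column 2, and metformin replicate 3 alone on a second slide. This layout was read from the barcode and the last digits of each scan name. Those digits carry no label, so that slide and column are inferred here and wherever they are used below. In bulk liver, fewer cells that make a circle and fewer copies per cell cannot be told apart.

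Levels are given as log2 of the processed intensity above the 75th percentile of the array. The middle circle was the brightest member, with a control level above that of 98.3% of circRNA probes. The short and the long circle stood above 83.3% and 83.6%. These ranks also depend on how well each probe binds and are no order of abundance.

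On control arrays the middle circle stood at 3.86, 3.86 and 3.85 in replicates 1 to 3. On the high fat diet it read 3.18, 2.96 and 2.91. With metformin it was 3.64, 3.39 and 3.44. The 3 groups did not overlap: every control array was above every metformin array, and every metformin array above every high fat diet array. The share of all circRNAs in this full order was not counted, and shares per pair of groups are given below. The group means were 3.85 ± 0.00491 (SD, n = 3), 3.01 ± 0.142 and 3.49 ± 0.130. The control spread was far below the usual one, since the median SD over control arrays was 0.154 among tested circRNAs. High fat diet minus control was -0.84 ± 0.132 (log2, SE), or 55.9% of the control level.

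The long circle stood at 1.18, 1.18 and 1.098 on control arrays. Its high fat diet levels were 0.22, 0.34 and -0.09. The metformin levels were 0.91, 0.54 and 0.39. Again the groups did not overlap, in the same order, whose share was not counted. Metformin replicate 3 at 0.39 was close to high fat diet replicate 2 at 0.34. Means were 1.15 ± 0.0479 (SD, n = 3) in controls, 0.16 ± 0.220 on the diet and 0.61 ± 0.267 with metformin. High fat diet minus control was -0.997 ± 0.165 (log2, SE), or 50.1% of the control level.

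The short circle stood at 1.102, 1.13 and 1.16 on control arrays. On the high fat diet it was at 0.17, -0.13 and -0.27. With metformin it read 0.87, 0.27 and -0.43, so that this group spanned the whole range of the high fat diet arrays and beyond. Metformin replicate 3, the array on the second slide, gave the lowest value of all 9. High fat diet minus control was -1.21 ± 0.258 (log2, SE), or 43.2% of the control level, and the group means were 1.13 ± 0.0310 (SD, n = 3) in controls, -0.08 ± 0.222 on the diet and 0.24 ± 0.648 with metformin.

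**Figure D2:**
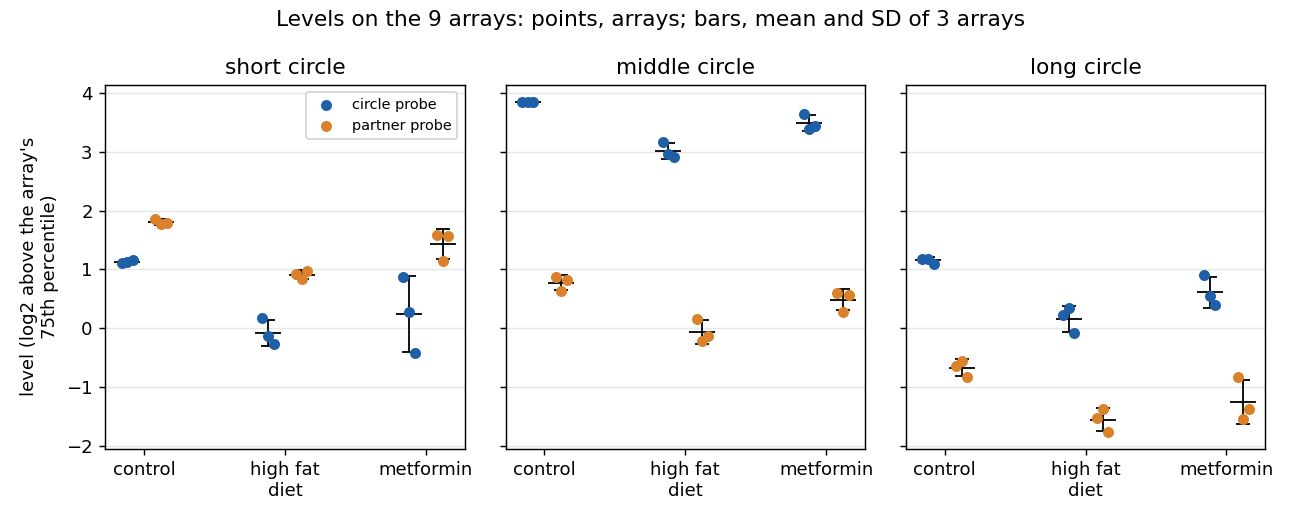
Levels of the short, middle and long circle (blue) and of their partner probes (orange) in the 3 groups, in log2 above the array's 75th percentile. Points are arrays and bars the mean and SD of 3 arrays. All 6 probes are lower on every high fat diet array than on every control array, and the partner of the short circle lies above the circle itself.

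In the contrast that chose the locus, high fat diet arrays were below all control arrays for 3 of 3 circles, where 9.0% of 24862 circRNAs with values on all 6 arrays showed the same. The median difference of the members was -0.997, against -0.06 over all tested circRNAs. Only 0.163%, 0.334% and 0.574% of tested circRNAs had a lower difference than the short, the long and the middle circle. All 6 arrays of fat-fed mice, with and without metformin, were below the 3 control arrays for 3 of 3 circles (2.52% of 24546 circRNAs). These counts restate the choice of the locus.

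Within column 1 of the first slide, high fat diet replicate 1 against the 3 controls gave -0.97 for the short, -0.68 for the middle and -0.93 for the long circle. Each value rests on that 1 array.

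Metformin was compared with the high fat diet alone, which asks what the drug changed on the same diet. The high fat diet arrays enter here too, and the locus was chosen for their low values, so that higher levels with metformin are not independent of that choice. The middle circle was higher with metformin by a log2 difference of 0.48 ± 0.132 (SE, limma, unadjusted p = 0.00379, adjusted p = 0.969), or 1.39-fold. For the long circle the difference was 0.45 ± 0.165 (limma, unadjusted p = 0.0177, adjusted p = 0.969). For the short circle it was 0.31 ± 0.258 (limma, unadjusted p = 0.248, adjusted p = 0.969), with a 95% interval of -0.25 to 0.88. No member passed the threshold of 0.05 for the Benjamini-Hochberg adjusted p, and neither did any of 25828 circRNAs (0.00%, limma). At an unadjusted p under 0.05 (limma), 599 (2.32%) were higher and 408 (1.58%) lower. Metformin arrays were above all high fat diet arrays for 2 of 3 circles, the middle and the long one, against 5.07% of circRNAs. The median difference of the members was 0.45, beside 0.03 over all tested.

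Single metformin arrays moved these values. Without metformin replicate 1 the difference of the short circle was -0.0023 and that of the long circle 0.31, and without metformin replicate 3 they were 0.65 and 0.57. Column 2 of the first slide held 2 arrays from either group, and there the short, middle and long circle differed by 0.77, 0.58 and 0.60.

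Metformin was also compared with control. The middle circle differed by -0.36 ± 0.132 (log2, SE, limma, unadjusted p = 0.0180, adjusted p = 0.919), the long by -0.54 ± 0.165 (unadjusted p = 0.00649, adjusted p = 0.855). For the short circle it was -0.896 ± 0.258 (limma, unadjusted p = 0.00479, adjusted p = 0.843). None of them passed the threshold for the adjusted p, nor did any of 25763 circRNAs (0.00%, limma; 1.64% higher and 3.43% lower at an unadjusted p under 0.05). Every metformin array was below every control array for 3 of 3 circles, where 6.88% of circRNAs showed that. The control arrays entered the choice of the locus, so that neither this count nor the p-values of this comparison are independent of it. The metformin levels amounted to 77.7%, 68.6% and 53.7% of the control level for the middle, long and short circle. Without metformin replicate 3 the difference of the short circle was -0.56, and without metformin replicate 1 it was -1.21. No slide column held both groups, so that no value within a slide column can be given. With slide and column together as a block, which links these groups through the high fat diet arrays and leaves metformin replicate 3 without weight, the differences shrank to -0.20, -0.0961 and -0.34 for the short, middle and long circle (limma, adjusted p = 0.903, 0.942 and 0.816).

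The partner probes followed the circles. The partner of the middle circle stood at 0.87, 0.62 and 0.82 on control arrays, at 0.16, -0.23 and -0.14 on the high fat diet, and at 0.60, 0.27 and 0.56 with metformin. The groups did not overlap, in the same order as for the circle. The share of all partners in this full order was not counted, and shares per pair of groups are given below. High fat diet minus control was -0.84 ± 0.161 (SE), the same to 2 decimals as for the circle itself. The log2 ratio of circle to partner was 3.08 ± 0.130 (SD, n = 3) in controls, 3.08 ± 0.0910 on the diet and 3.01 ± 0.121 with metformin, and the diet shifted it by 0.0014 ± 0.112 (SE). The partner reached 11.8% ± 1.04 (SD, n = 3) of the circle's intensity in controls and 11.8% ± 0.734 on the diet.

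For the long circle the partner stood at -0.64, -0.55 and -0.83 in controls. The high fat diet values of that partner were -1.53, -1.38 and -1.77, and those with metformin -0.83, -1.56 and -1.38. Control and high fat diet arrays were apart, while the metformin arrays overlapped those of the high fat diet. High fat diet minus control was -0.89 ± 0.196 (SE) for this partner and -0.11 ± 0.119 for the log2 ratio of circle to partner.

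The partner of the short circle was the brighter of its pair on all 9 arrays. It stood at 1.85, 1.77 and 1.79 in controls, 0.92, 0.84 and 0.98 on the diet and 1.58, 1.14 and 1.56 with metformin, so that its groups did not overlap. Its intensity was 160% ± 7.59 (SD, n = 3) of the circle's in controls. Since the target of the partner is not stated and probes can bind unequally, the amount of circle signal cannot be read from this ratio. On metformin replicate 3, where the circle was at its lowest, the partner stood at 1.56 and was not low.

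High fat diet arrays were below control arrays for 3 of 3 partners (8.86% of all tested partners), and metformin arrays were above high fat diet arrays for 2 of 3, the partners of the short and the middle circle (7.03%). Below the controls were also the metformin arrays for 3 of 3 partners (5.77%) and all 6 fat-fed arrays for 3 of 3 (2.34%). For the partner of the long circle these last counts rest on a near tie, with control replicate 3 at -0.826 and metformin replicate 1 at -0.830. The partners' differences between metformin and high fat diet were 0.51 ± 0.154, 0.55 ± 0.161 and 0.30 ± 0.196 (log2, SE) for the short, middle and long circle, and each missed the threshold (limma, adjusted p = 0.931 for each, with 0.00% of 22020 partners called and 4.56% at an unadjusted p under 0.05). Between metformin and control they were -0.38 ± 0.154 (limma, adjusted p = 0.785), -0.29 ± 0.161 (adjusted p = 0.860) and -0.58 ± 0.196 (adjusted p = 0.704), where 6.18% of 21979 partners had an unadjusted p under 0.05. The ratio of circle to partner differed between metformin and high fat diet by -0.20 ± 0.292, -0.07 ± 0.112 and 0.15 ± 0.119 (limma, adjusted p = 0.972, 0.972 and 0.969, with 0.00% of 21258 pairs called and 4.91% at an unadjusted p under 0.05). Between metformin and control the ratio differed by -0.52 ± 0.292, -0.07 ± 0.112 and 0.04 ± 0.119 (limma, adjusted p = 0.806, 0.955 and 0.982, with 6.69% of 21169 pairs at an unadjusted p under 0.05). Whether the lower signal belongs to the circles or to whatever both probes of a pair read cannot be told apart with these probes.

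**Figure D3:**
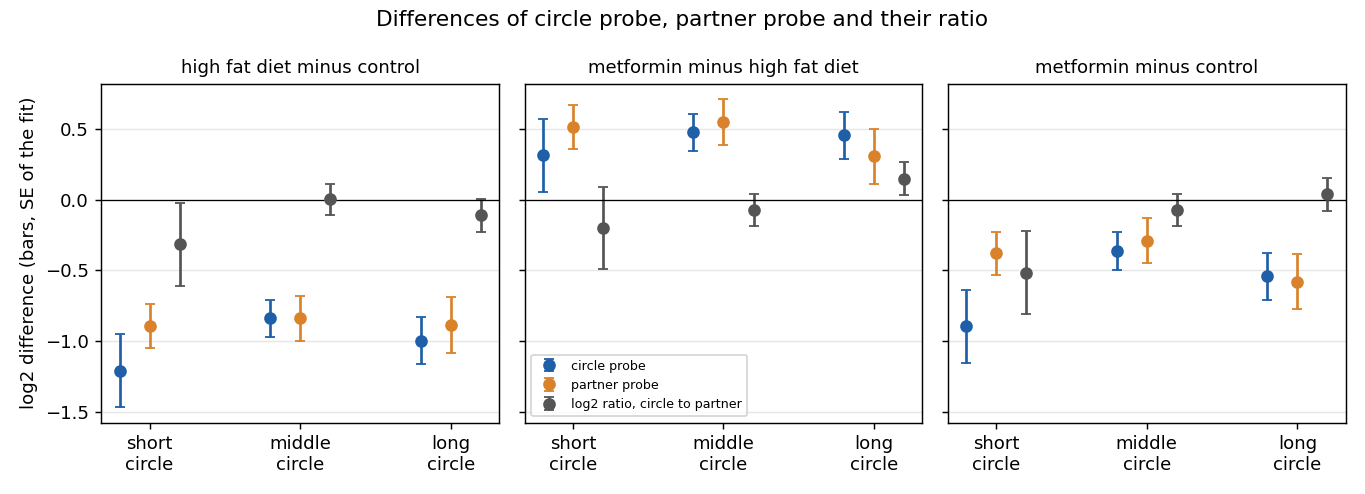
Log2 differences (points) with the SE of the fit (bars) for the circle probe, its partner probe and the log2 ratio of the pair, in the 3 comparisons between groups. Circle and partner are lower by 0.84 for the middle circle on the high fat diet, while the ratio lies at 0.0014.

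The circles were also compared with each other on the same array, without a test. The log2 difference of middle minus long was 2.70 ± 0.0431 (SD, n = 3) in controls, 2.86 ± 0.206 on the diet and 2.88 ± 0.163 with metformin, and the ranges of control and high fat diet arrays overlapped. For short minus middle it was -2.72 ± 0.0357 in controls and -3.09 ± 0.0838 on the diet, without overlap, and -3.25 ± 0.560 with metformin. The share of other circRNA pairs that separate in this way was not counted, and the locus was chosen on that contrast. Short minus long was -0.0217 ± 0.0772 in controls, -0.23 ± 0.210 on the diet and -0.37 ± 0.398 with metformin, with overlap between control and high fat diet arrays. This sets changes, not amounts, of different probes side by side.

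Other circRNAs on chromosome 19 were looked at for a shift shared with the surroundings. Within 1 Mb on either side 12 further position-named circRNAs were found, of which 10 were tested. The nearest spans lay 210 kb below (43342890 to 43368854, not tested because it was dim) and 283 kb above (43872897 to 43873635). The latter differed by -0.09 ± 0.149 (log2, SE) between high fat diet and control. Over the 10, this difference ran from -0.26 to 0.28 with a median of -0.09, and 6 were below 0. All 10 lay above every member, the highest of which was at -0.84. The members were chosen for low values in this contrast, so that the gap to their neighbours partly restates that choice. For metformin minus high fat diet the 10 ranged from -0.25 to 0.24. The rest of chromosome 19 had medians of -0.03 (346 circRNAs) and -0.03 (349 circRNAs) in those comparisons.

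**Figure D4:**
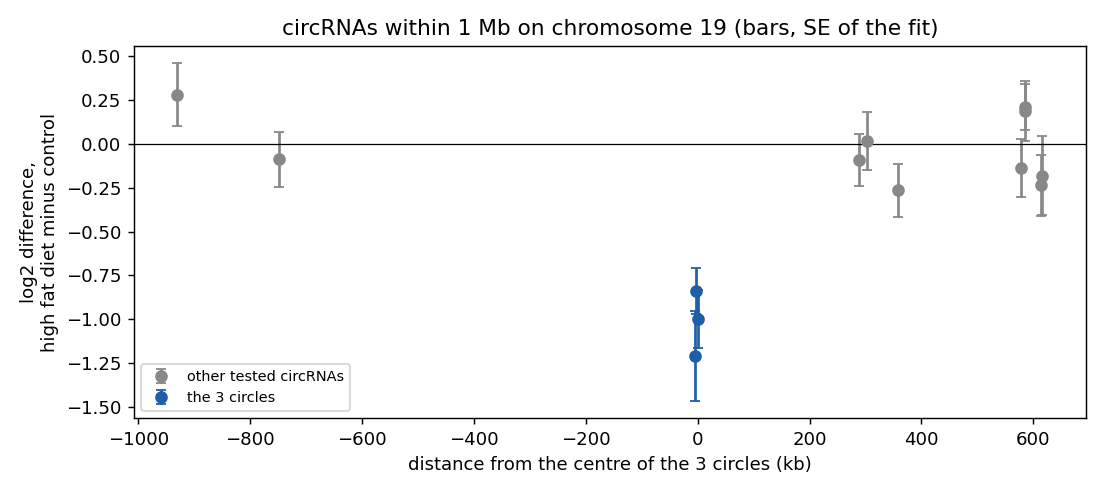
Log2 difference between high fat diet and control (points, with the SE of the fit as bars) for the 3 circles (blue) and the 10 tested circRNAs within 1 Mb on chromosome 19 (grey), against the distance in kb from the centre of the 3 circles. The grey points lie between -0.26 and 0.28, and the 3 circles, which were chosen on this contrast, at -0.84 and below.

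Among 24543 circRNAs with values on all arrays, likeness to the mean of the 3 members was measured as the root mean square difference over the 9 arrays, after each profile was centred on its own mean. The median was 0.46 (log2). The most similar was a circRNA on chromosome 8 (41984291 to 41996451; 0.134), with levels of 1.71 ± 0.192 (SD, n = 3) in controls, 0.87 ± 0.223 on the diet and 1.12 ± 0.422 with metformin. Then came Fan_16_148_295 (0.155), mmu_circ_0001935 (0.162), one on chromosome 19 far from the window (55703278 to 55705776; 0.175) and one on chromosome 6 (37853533 to 37858364; 0.180). The last 4 were dim, with control levels of -2.15, -2.30, -2.18 and -1.93. The members themselves lay at 0.0801 (long), 0.156 (middle) and 0.199 (short) from their own mean, and the partners of the long, middle and short circle at 0.151, 0.228 and 0.229. The partner of the long circle was thus nearer to the members' mean than the short circle was. Among so many profiles some match closely, and the list is a description.

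The authors' deposited log2 values give the same order for both circles that exceed their partners. The middle circle had 13.3 ± 0.0648 (SD, n = 3) in controls, 12.5 ± 0.0565 after the diet alone and 13.0 ± 0.124 after metformin. For the long circle these were 10.3 ± 0.0851, 9.30 ± 0.198 and 9.81 ± 0.183. In neither case did control, metformin and high fat diet arrays overlap. The share of all deposited circRNAs with such an order was not counted. The short circle stood on all 9 arrays at -3.32, the lowest value in the table, and has no order between groups there. On the same arrays its processed intensity was below that of its partner. Whether the deposited values have the partner subtracted is not stated in the sources at hand, so that they may not be a reading free of the partners.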

How the data were processed

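Liver RNA from 9 pools was hybridised to a 1-colour circRNA array. Per the file headers, the scanner software (Agilent Feature Extraction 11.5.1.1; version 10.7 per the submitters' processing notes) gave the deposited intensity of each spot, background-subtracted and detrended, beside raw median intensities. The authors also deposited log2 values per circRNA, with a median of 6.51 on every array and a floor of -3.32; the sources at hand do not state their scaling.

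Processed intensities were log2-transformed and expressed relative to the 75th percentile of each array (control spots excluded). Spots with outlier flags were dropped. Testing required a probe to be well above background throughout 1 group or more (25863 circRNAs, or 84.7%, with all 3 members). One model held all 9 arrays (limma 3.58.1, R 4.3.3, lmFit and eBayes; 6 residual and 5.72 prior degrees of freedom), with Benjamini-Hochberg adjustment over all tested circRNAs, and checked on simulated data. Partners and ratios were fitted alike. The members, lists and tests were chosen with earlier results of these data known. All members are named, with the 5 circRNAs of most similar profile and the nearest neighbours. Replicate numbers were checked for pairing: deviations of same-numbered arrays correlated at -0.14 to 0.193 across circRNAs, over 0.1 in 2 of 9 pairs. Differently numbered arrays correlated at -0.26 to 0.275. The best match in another group had the array's own number in 6 of 18 cases. The main fit was therefore unpaired, though this check cannot show that equal numbers share no handling. Alternatives covered background correction, scaling, filters, deposited values, array weights, slide column, slide and column as a block, replicate block and each array left out.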

Additional observations from a re-analysis of the deposited data

How the results depend on the processing

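The mean difference of the 3 circles was -1.02 (high fat diet minus control), 0.41 (metformin minus high fat diet) and -0.60 (metformin minus control). Leaving out each array gave -1.09 to -0.92, 0.24 to 0.57 and -0.78 to -0.44. With array weights, which were lowest for high fat diet replicate 2 (0.429) and metformin replicate 3 (0.487), the means were -1.06, 0.56 and -0.50. As the ratio to the partner the means were -0.14, -0.042 and -0.18. Between high fat diet and control the ratio differed by -0.32, 0.0014 and -0.11 for the short, middle and long circle. It reversed the sign between metformin and high fat diet for the short (-0.20) and middle circle (-0.074), and between metformin and control for the long circle (0.037). Leaving out each array gave the short circle -0.0023 to 0.65 between metformin and high fat diet, so that its sign rests on metformin replicate 1. Within slide column 1 the diet differences were -0.86 (mean), -0.97 (short) and -0.68 (middle). With the slide column as a covariate, which put the lone array of the second slide (metformin replicate 3) in 1 column with the controls, the short circle stood at -1.42. With slide and column together as a block, chosen after seeing the data, the mean between metformin and control was -0.21 in place of -0.60. The diet differences of that fit, -0.86, -0.97 and -0.68, are those within slide column 1 by its design. Only this column holds both controls and high fat diet arrays, so that they rest on high fat diet replicate 1 and are no second check. For the middle circle normexp with quantile normalization gave -0.74 and the authors' deposited values -0.73. The replicate block left the balanced differences as they were (mean -1.02 on the diet) and called no member in the metformin comparisons (limma, adjusted p = 0.502 to 0.975). Of 260 recomputed values, 240 kept their direction and moved by less than the spread between arrays or stayed on their side of the threshold. Some could not move. The diet mean stayed at -1.02 with the replicate block, the other filters and each metformin array left out. For members in the metformin comparisons, keeping the sign and missing the threshold was enough. Between metformin and control, the slide and column block moved the short circle from -0.896 to -0.20 and the middle from -0.36 to -0.0961. These changes are among the 240, which thus do not measure robustness. No member was called in either metformin comparison under the alternatives that were tested (limma, adjusted p 0.191 or above); the values within slide columns had no test. Scalings moved the median of all circRNAs by at most 0.0325. The mean of the middle and long circle alone was also chosen after seeing the data. With 3 pools per group, the number of arrays limits the precision.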
